A study of Homo sapiens with 9 samples.

Results

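Prostaglandins are lipid mediators that cells make from arachidonic acid, sense at their surface and break down again, and 7 genes of this cycle were followed in LNCaP cells, a human prostate cancer line that responds to androgen. HPGD (breakdown), PTGER4 and PTGER2 (receptors), ABCC4 (export), and PTGES, PTGS1 and PTGS2 (synthesis) were taken as a named list, and every probe set that the array annotation gives to 1 of them alone was used. These were 14 of the 22215 probe sets on the array and 7 of its 12165 genes. All cells first spent 2 days in serum stripped of steroid hormones with charcoal, and each group held 3 arrays. The androgen plus celastrol group received 1 nM R1881, a synthetic androgen that cells metabolise poorly, together with 1.25 µM celastrol, a triterpenoid of the thunder god vine. The androgen group received 1 nM R1881 with DMSO, and the vehicle group ethanol and DMSO. Treatment lasted 24 h per the labels, except that the titles of the androgen arrays give 6 h. Their descriptions give 24 h, so the time of that group is not settled. If it was 6 h, treatment and time cannot be told apart in comparisons with that group. The arrays are called biological replicates with no further statement on separate cultures, so p-values measure only the spread between these arrays. LNCaP is 1 cell line, which limits what these values represent.

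In the prostaglandin cycle, the cyclooxygenases PTGS1 and PTGS2 turn arachidonic acid into the common precursor of all prostaglandins, and PTGES makes prostaglandin E2 from it. ABCC4 pumps prostaglandins out of the cell, and the receptors EP2 (PTGER2) and EP4 (PTGER4) answer prostaglandin E2 through the stimulatory G protein and cAMP. HPGD, the NAD-dependent prostaglandin dehydrogenase, oxidises prostaglandin E2 and begins its inactivation, and it is known as an androgen-induced gene in prostate cells.

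The RefSeq promoter windows of the 3 genes that responded to androgen on these arrays are shown, so that the 3 starts can be compared. Each window runs from 250 bases before the gene's start to 50 bases after it on build GRCh38.p14, read 5′ to 3′ on the gene's own strand. Capitals mark GC boxes, the letters GGGCGG on either strand, which SP-family factors are known to bind.
HPGD, chr4:174522439-174522738, minus strand: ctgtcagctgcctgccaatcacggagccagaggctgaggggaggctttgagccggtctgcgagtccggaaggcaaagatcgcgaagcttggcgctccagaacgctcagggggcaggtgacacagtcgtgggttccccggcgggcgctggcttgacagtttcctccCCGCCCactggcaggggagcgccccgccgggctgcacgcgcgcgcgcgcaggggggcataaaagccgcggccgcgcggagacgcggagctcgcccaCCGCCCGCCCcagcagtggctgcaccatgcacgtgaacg
PTGER4, chr5:40679665-40679964, plus strand: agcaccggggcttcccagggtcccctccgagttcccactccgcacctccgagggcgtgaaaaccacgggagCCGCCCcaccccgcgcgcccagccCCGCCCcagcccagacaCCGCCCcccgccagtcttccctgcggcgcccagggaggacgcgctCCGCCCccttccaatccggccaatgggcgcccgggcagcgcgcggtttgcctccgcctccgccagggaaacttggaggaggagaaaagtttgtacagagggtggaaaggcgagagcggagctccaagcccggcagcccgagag
ABCC4, chr13:95301402-95301701, minus strand: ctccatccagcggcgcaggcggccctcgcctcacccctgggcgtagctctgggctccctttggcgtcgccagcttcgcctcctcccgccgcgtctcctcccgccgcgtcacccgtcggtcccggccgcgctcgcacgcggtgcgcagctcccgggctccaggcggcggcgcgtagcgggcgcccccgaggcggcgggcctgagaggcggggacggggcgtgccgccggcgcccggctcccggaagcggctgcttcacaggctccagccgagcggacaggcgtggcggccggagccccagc
RefSeq gives HPGD a second start, whose window at chr4:174522844-174523143 is not printed and held 0 GC boxes and 44.7% GC. GC boxes were found 3 times in the printed HPGD window, 2 of them overlapping, 4 times in the PTGER4 window and 0 times in the ABCC4 window. Of all 35116 promoter windows, 45.0% held at least 1. The GC content of the printed windows ranged from 71.0% for HPGD to 79.7% for ABCC4, against a median of 58.7% over all windows. The hexamer AGAACA, 1 arm of the androgen response element, was searched on both strands and stands in 14.8% of all windows but in none of the member windows. These are descriptions of letters in short windows, and they give no information on factor binding there or at distant elements.

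Values are given as intensity on a linear scale, and differences as log2 differences of group means. A probe set was called near background where the mean of its log2 values in all 3 groups lay below 5.52, an intensity of 45.7, which is the 90th percentile of 34 probe sets of genes that belong to other tissues, such as haemoglobin, lens crystallins and protamines. By this rule 31.9% of all probe sets on the array lay near background. Of the member probe sets 7 of 14 did, and 4 genes had no other: PTGER2, PTGES, PTGS1 and PTGS2. HPGD, PTGER4 and ABCC4 each had at least 1 probe set above it. A level at the 75th percentile of the same list left 6 probe sets and 3 genes near background, since PTGES then passed. One gene of the list, GCG, was itself well above the level in vehicle, with 60.3 ± 3.27 in androgen and 252 ± 44.3 in vehicle (SD, n = 3 each).

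Vehicle array 3 stood apart from the other arrays, with a standard deviation of 0.31 for its deviations from the group mean, against at most 0.21 on any other array. The array medians ranged from 72.2 to 80.2 in intensity. All 8 luminal prostate markers on the array were above background, and their summed intensity was 37680 to 41160 with androgen plus celastrol, 53550 to 56820 with androgen and 31420 to 31690 with vehicle. Several of these markers are known androgen targets. Of 15 markers of basal, stromal, endothelial and blood cells, 8 lay near background, among them KRT5, PECAM1, PTPRC, CD14, CD3E and MS4A1. CD3E and MS4A1 also belong to the genes of other tissues that set the level, so their place below it tells little. The other 7 did not lie near background by this rule: KRT14, COL1A1, COL1A2, COL3A1, DCN, ACTA2 and VWF. Some passed it only narrowly. KRT14 and COL3A1 were above the level with vehicle alone, at 52.55 ± 32.5 and 56.59 ± 4.77 (SD, n = 3 each). DCN averaged 43.98 with androgen plus celastrol, 47.46 with androgen and 52.13 with vehicle. ACTA2, the smooth muscle actin, was called by limma at 0.66 for androgen against vehicle and -0.76 for androgen plus celastrol against androgen. VWF was called at -1.13 and COL3A1 at -0.43 for androgen against vehicle, and both again for androgen plus celastrol against vehicle, at -1.28 and -0.35. The summed intensity of these 15 was 690.3 to 723.9 with androgen plus celastrol, 756.1 to 834.9 with androgen and 805.6 to 944.9 with vehicle. In bulk RNA, fewer cells of a type and less RNA per cell cannot be told apart. The part of either marker list in the results below was not tested.

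**Figure D1:**
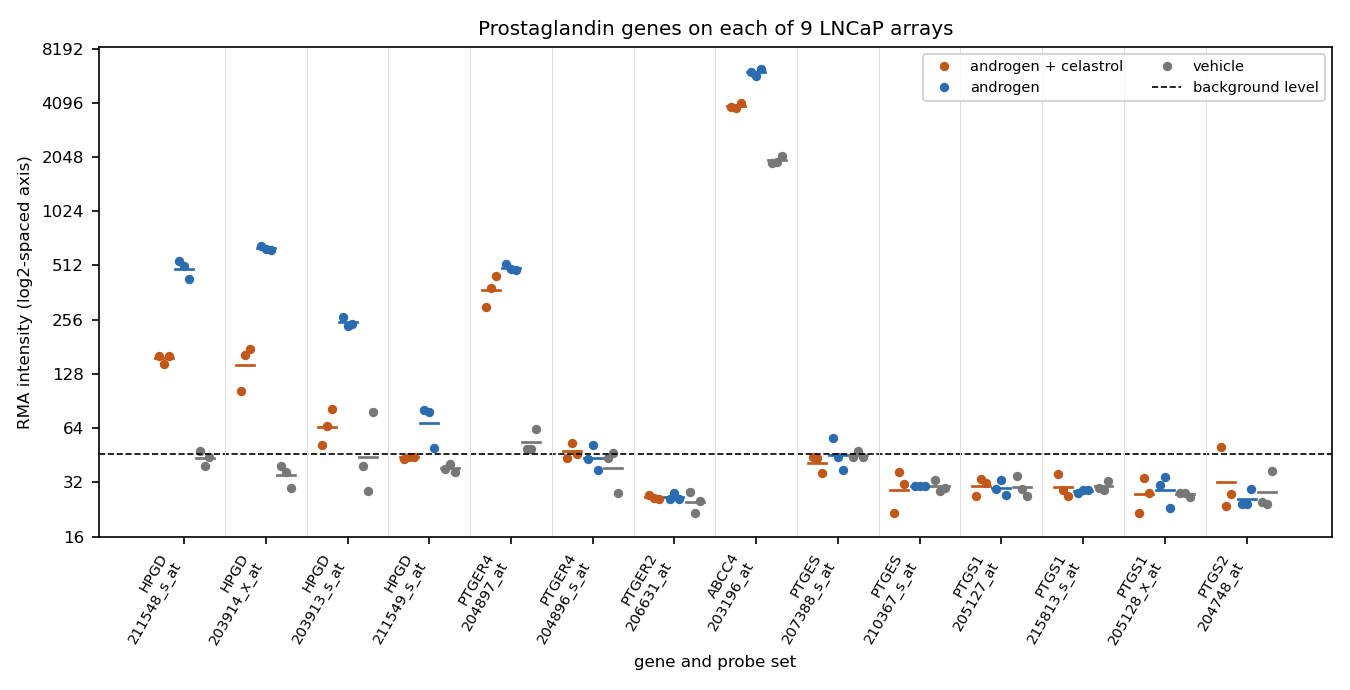
RMA intensity (log2-spaced axis) of the 14 probe sets on each array, with 1 point per array and bars at the mean of the log2 values, for androgen plus celastrol (orange), androgen (blue) and vehicle (grey). The dashed line is the background level of 45.7: HPGD 211548_s_at and 203914_x_at, PTGER4 204897_at and ABCC4 separate by group, the androgen arrays stand highest at all 4 HPGD probe sets, and PTGER2, PTGES, PTGS1 and PTGS2 lie around or below the line.

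With androgen, HPGD, PTGER4 and ABCC4 were all higher than with vehicle, by at least 10.7-fold, 9.29-fold and 3.08-fold at the HPGD probe set 211548_s_at, the PTGER4 probe set 204897_at and the only ABCC4 probe set. With androgen plus celastrol, HPGD and ABCC4 were lower than with androgen, while PTGER4 did not pass that test. PTGER4 at 204897_at, ABCC4 and 2 of the 4 HPGD probe sets stayed above vehicle. If the androgen titles of 6 h are right, celastrol and time cannot be told apart here. In counts, 6 of 14 member probe sets were higher with androgen than with vehicle, 0 lower and 8 did not pass. The test was limma with Benjamini-Hochberg adjustment over all 22215 probe sets at 0.05, and it called 6.04% of all probe sets higher and 4.47% lower in this comparison. With androgen plus celastrol against androgen, 5 of 14 were lower and 0 higher, where 5.66% of all probe sets were called lower and 6.91% higher. With androgen plus celastrol against vehicle, 4 of 14 were higher and 0 lower, where 11.1% of all were called higher and 7.94% lower. At an unadjusted p under 0.05 the counts of 0 lower, 0 higher and 0 lower were the same. These comparisons share arrays in pairs, so their values are set side by side and not correlated. The median over the 14 probe sets was 0.14 for androgen against vehicle, beside -0.04 over all probe sets. It was -0.11 beside 0.02 for androgen plus celastrol against androgen, and 0.20 beside -0.01 against vehicle. The array-wide split of calls for androgen against vehicle was 1341 higher and 992 lower, and it became 1821 higher and 738 lower with array medians subtracted.

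**Figure D2:**
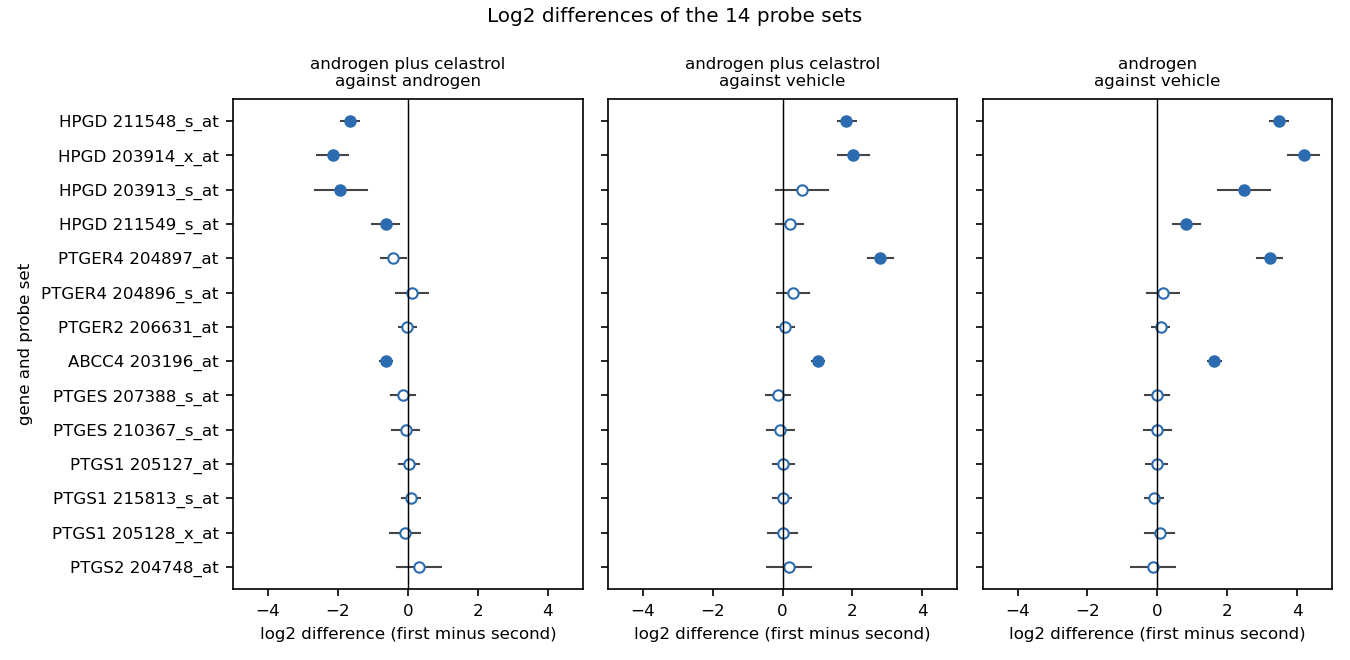
Log2 differences of the 14 probe sets in each comparison, first group minus second, with 95% confidence intervals from limma; filled points passed the adjusted threshold of 0.05. For androgen against vehicle the filled points are the 4 HPGD probe sets, PTGER4 204897_at and ABCC4. PTGER4 204897_at is open against androgen, HPGD 203913_s_at and 211549_s_at are open for androgen plus celastrol against vehicle, and the open points of PTGER2, PTGES, PTGS1 and PTGS2 lie close to 0.

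HPGD, on chromosome 4, has 4 probe sets on the array. At 211548_s_at it had intensities of 161.5, 145.2 and 161.5 with androgen plus celastrol, 542.0, 506.9 and 430.8 with androgen, and 47.7, 39.6 and 44.1 with vehicle. The groups did not overlap, and the order was androgen highest, androgen plus celastrol between and vehicle lowest. Androgen was 3.49 ± 0.11 (SE) log2 above vehicle, with limma's adjusted p of 8.14e-07. The vehicle mean lies below the background level, so the fold is a lower bound taken over that level, as for the other probe sets written with "at least". Androgen plus celastrol differed from androgen by -1.66 ± 0.11 (3.15-fold lower, adjusted p = 5.84e-05 with limma), and it was 1.83 ± 0.11 higher than vehicle (at least 3.41-fold, adjusted p = 1.27e-05 with limma).

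The other HPGD probe sets gave the same direction with different sizes. At 203914_x_at, a set whose probes can also match related sequences by its suffix, HPGD had 103.4, 163.1 and 175.0 with androgen plus celastrol, 657.6, 628.4 and 627.3 with androgen, and 39.5, 36.7 and 29.7 with vehicle. All 3 vehicle arrays were below the background level, so the difference of 4.19 ± 0.19 between androgen and vehicle stands for at least 13.9-fold (limma adjusted p = 3.25e-06). With celastrol it was -2.15 ± 0.19 against androgen (adjusted p = 0.000201 with limma) and 2.03 ± 0.19 against vehicle (at least 3.14-fold, adjusted p = 0.000124).

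At 203913_s_at HPGD had 51.4, 66.0 and 81.6 with androgen plus celastrol, 266.0, 235.1 and 242.6 with androgen, and 39.2, 28.5 and 78.9 with vehicle. The androgen arrays stood above all others, while vehicle array 3 reached into the range of androgen plus celastrol. Androgen differed from vehicle by 2.48 ± 0.33 (at least 5.41-fold, limma adjusted p = 0.00127), and androgen plus celastrol from androgen by -1.93 ± 0.33 (0.0053). Androgen plus celastrol against vehicle did not pass, at 0.55 ± 0.33 (adjusted p = 0.296 with limma). Without vehicle array 3 that difference was 0.96 with an adjusted p of 0.0102 by limma, so this 1 array decides the call.

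The fourth probe set, 211549_s_at, was the dimmest. HPGD had 43.1, 44.4 and 44.4 there with androgen plus celastrol, 80.5, 78.6 and 49.5 with androgen, and 37.9, 40.3 and 36.6 with vehicle. Only the androgen arrays rose above the background level, and androgen array 3 was much lower than the other androgen arrays. The difference was 0.83 ± 0.17 for androgen against vehicle (limma adjusted p = 0.0138) and -0.63 ± 0.17 for androgen plus celastrol against androgen (0.0442), each at least 1.48-fold in size. The second call was lost in 9 of 18 alternative settings, with adjusted p up to 0.163, and the first in 3 of 18, with adjusted p up to 0.0653. Androgen plus celastrol against vehicle did not pass, at 0.20 ± 0.17 (adjusted p = 0.464 with limma).

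PTGER4, on chromosome 5, encodes the EP4 receptor, which raises cAMP when it binds prostaglandin E2. At 204897_at it had 300.8, 383.3 and 447.9 with androgen plus celastrol, 519.7, 486.6 and 486.1 with androgen, and 49.3, 49.0 and 63.5 with vehicle. Both androgen-treated groups stood far above vehicle, and the arrays with celastrol spread more widely than those with androgen alone. Androgen was 3.22 ± 0.16 above vehicle (95% interval 2.86 to 3.57, limma adjusted p = 4.54e-06), and androgen plus celastrol 2.80 ± 0.16 above vehicle (adjusted p = 8.58e-06 with limma). All 3 arrays with celastrol lay below all 3 with androgen alone, but the difference of -0.42 ± 0.16 did not pass (95% interval -0.77 to -0.06, limma unadjusted p = 0.0266, adjusted p = 0.14). It was not called in any of 20 alternative settings, with adjusted p from 0.055 to 0.491, and it was -0.26 without array 1 of androgen plus celastrol.

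The other PTGER4 probe set, 204896_s_at, lay just above the background level in 1 group. PTGER4 had 43.8, 53.2 and 46.0 there with androgen plus celastrol, 43.0, 51.3 and 37.4 with androgen, and 43.8, 46.8 and 28.0 with vehicle. The groups overlapped, and the difference of androgen from vehicle was 0.17 ± 0.20 (95% interval -0.28 to 0.63, limma adjusted p = 0.725), so it does not show the 9.29-fold difference of 204897_at. Its sign turned to -0.06 without vehicle array 3. Of the PTGER4 probe sets, the brighter one alone carries the response described here.

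PTGER2, on chromosome 14, encodes EP2, the other receptor of this list that couples to cAMP. It had 27.1, 26.1 and 25.9 with androgen plus celastrol, 26.0, 27.8 and 26.0 with androgen, and 28.3, 21.5 and 25.3 with vehicle at its only probe set, 206631_at. All 9 values were below the background level of 45.7 and the groups overlapped. The difference was 0.10 ± 0.11 between androgen and vehicle (limma adjusted p = 0.714) and -0.01 ± 0.11 between androgen plus celastrol and androgen (0.971). At this signal a change in PTGER2 was not detectable, which differs from showing that it has no transcript.

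ABCC4, on chromosome 13, encodes a multidrug resistance protein of the plasma membrane that exports prostaglandins and also cyclic nucleotides. At 203196_at it had 3882.9, 3830.3 and 4111.3 with androgen plus celastrol, 6051.5, 5798.3 and 6300.5 with androgen, and 1893.1, 1921.4 and 2072.1 with vehicle. The groups did not overlap, and each group's arrays lay close together. ABCC4 was 1.62 ± 0.08 higher with androgen than with vehicle (95% interval 1.44 to 1.81, limma adjusted p = 4.59e-06). Androgen plus celastrol was -0.62 ± 0.08 from androgen (1.53-fold lower, limma adjusted p = 0.00125) and 1.01 ± 0.08 above vehicle (2.01-fold, 4.58e-05). Each of the ABCC4 calls held in all 19 alternative settings.

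The synthesis genes gave no signal that could be followed. PTGS2, the inducible cyclooxygenase on chromosome 1, had 50.5, 23.7 and 27.4 with androgen plus celastrol, 24.3, 24.1 and 29.3 with androgen, and 24.8, 24.2 and 37.1 with vehicle. Array 1 of androgen plus celastrol was the only one of 9 above the background level, and it was not matched by the other arrays of its group. The difference from androgen was 0.31 ± 0.28 (95% interval -0.32 to 0.94, limma adjusted p = 0.597).

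PTGES, the inducible microsomal prostaglandin E synthase on chromosome 9, had 44.5, 43.5 and 35.9 with androgen plus celastrol, 56.1, 44.1 and 37.5 with androgen, and 44.4, 47.6 and 44.1 with vehicle at 207388_s_at. These values straddle the background level and overlap between groups. At its other probe set, 210367_s_at, PTGES had 21.6, 36.7 and 31.2 with androgen plus celastrol, 30.5 on each androgen array, and 33.1, 28.7 and 29.7 with vehicle. PTGS1, the constitutive cyclooxygenase on the same chromosome, had values from 21.7 to 35.7 over its 3 probe sets and 9 arrays. None of the 7 near-background probe sets was called by limma in any comparison, and none had an unadjusted p under 0.05. Their largest difference was 0.12 log2 in size for androgen against vehicle, 0.31 for androgen plus celastrol against androgen and 0.19 for androgen plus celastrol against vehicle.

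The part of the androgen rise that remained with celastrol was described for the 3 responding genes. Set as the intensity above vehicle with celastrol in per cent of that with androgen, PTGER4 kept 72.9%, with 55.6%, 74.3% and 88.8% on the single arrays. ABCC4 kept 48.4%, with 47.0%, 45.7% and 52.6%. HPGD kept 25.0% at 211548_s_at, with 26.2%, 22.6% and 26.2%. The arrays of the 3 genes did not overlap in this measure, which depends on the size of the rise as well as on the fall from androgen. On the log2 scale, the difference from androgen was -0.42 ± 0.16 for PTGER4, which did not pass, and -0.62 ± 0.08 for ABCC4. The ratio of PTGER4 to ABCC4, given below, overlapped between those groups. The other HPGD probe sets gave 18.6%, 8.77% and 18.1%, and their arrays ranged from 1.28% to 23.2%. On the log2 scale the part kept was 87.0% for PTGER4, 62.0% for ABCC4 and 52.6% for HPGD at 211548_s_at. These parts share the androgen and vehicle arrays and are descriptions with no test. If the androgen arrays were taken at 6 h, as their titles give, celastrol and time cannot be told apart in them.

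**Figure D3:**
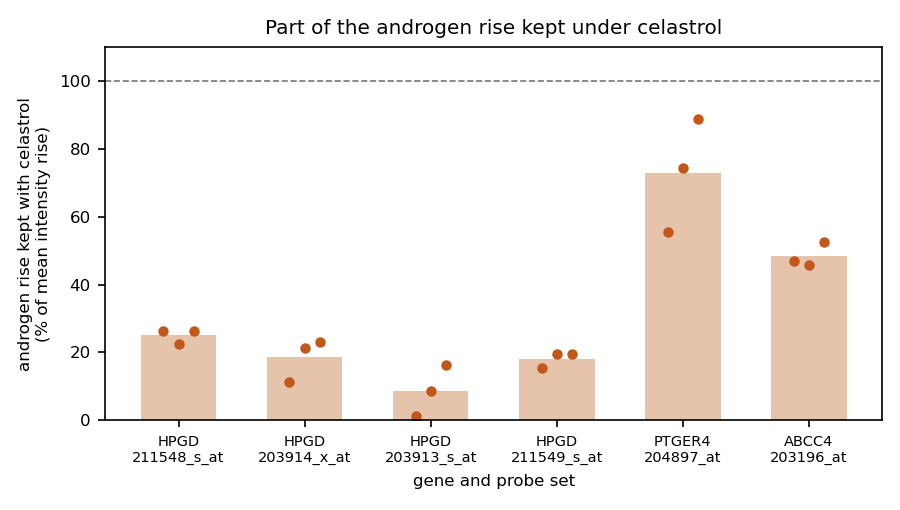
Intensity above vehicle with androgen plus celastrol, in per cent of the same with androgen, for the 6 probe sets called higher with androgen; bars are group means and points single arrays with celastrol, and the dashed line marks the whole androgen rise. PTGER4 kept the most, ABCC4 less, and the HPGD probe sets the least.

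A ratio of 2 genes on the same array was used to set the genes against each other, for 3 pairs picked after their values were seen. The log2 ratio of HPGD to PTGER4 averaged -1.26 ± 0.31 with androgen plus celastrol and -0.02 ± 0.14 with androgen (SD, n = 3 each), a difference of -1.24 without overlap. That of HPGD to ABCC4 averaged -4.66 ± 0.07 with androgen plus celastrol and -3.62 ± 0.22 with androgen, a difference of -1.04, again without overlap. PTGER4 to ABCC4 differed by 0.20, and its arrays overlapped. The two-sided exact permutation p was 0.1, 0.1 and 0.3, and 0.15, 0.15 and 0.3 after Benjamini-Hochberg adjustment over the 3 ratios. With 3 arrays against 3, no p below 0.1 can be reached, so the differences between genes could not pass a threshold of 0.05 in this design.

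Of the enzymes around these genes, 13 of a list of 14 for arachidonic acid release and prostanoid synthesis were on the array, and 4 lay near background. Read with 1 probe set a gene, limma with Benjamini-Hochberg adjustment called 6.71% of all genes higher and 5.35% lower with androgen than with vehicle. In the synthesis list that comparison gave 0 higher, also at an unadjusted p under 0.05, and 1 lower. The gene was PLA2G2A, a secreted phospholipase that frees fatty acids from membranes, with 512.4 ± 18.5 in androgen and 1961 ± 222 in vehicle (SD, n = 3 each), a log2 difference of -1.93 ± 0.14 (adjusted p = 3.54e-05). With androgen plus celastrol against androgen, 4 of the 13 were higher and 0 lower, 0 also at an unadjusted p under 0.05, where 8.13% of all genes were called higher and 6.6% lower. The list's median was -0.13 for androgen against vehicle and 0.14 for androgen plus celastrol against androgen, beside -0.04 and 0.02 over all genes.

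The 4 genes higher with celastrol do not share 1 step. AKR1C3, which reduces prostaglandin D2 and also steroids, averaged 136 ± 58.1 with androgen plus celastrol and 37.5 ± 10.6 with androgen, a difference of 1.79 ± 0.35 (limma adjusted p = 0.0107) that stands for at least 2.75-fold, since the androgen mean lies below the background level. Its call was lost without androgen array 2 (adjusted p = 0.0508). CBR1, a carbonyl reductase that acts on prostaglandin E2 and on many other carbonyls, averaged 521 ± 55.7 with androgen plus celastrol and 242 ± 27.5 with androgen (1.11 ± 0.12, limma adjusted p = 0.000477). TBXAS1, the thromboxane synthase, averaged 62.2 ± 9.91 with androgen plus celastrol and 28.9 ± 3.88 with androgen, which lies below the background level, so that its change is at least 1.35-fold. PLAA, a phospholipase A2 activating protein also known in ubiquitin handling, differed by 0.75 ± 0.07. PTGES3, the cytosolic prostaglandin E synthase that is also the HSP90 co-chaperone p23, differed by -0.01 ± 0.07 between androgen plus celastrol and androgen (adjusted p = 0.959).

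Among the other receptors of prostanoids, 7 of 8 were on the array, and none was called by limma in any comparison. None had an unadjusted p under 0.05 either, and the smallest was 0.0683. PTGER3, the EP3 receptor, had a wide error, with -0.39 ± 0.58 for androgen plus celastrol against androgen. Without vehicle array 3, 1 of them was called lower for androgen against vehicle. With PTGER4 and PTGER2, 9 prostanoid receptor genes were read, and PTGER4 was the 1 called in a comparison with vehicle when all arrays were used. For the receptors near or close to background, the missing calls do not show that they did not change.

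Transport and breakdown genes other than the members were 10 of 13 on the array, 4 of them near background. With androgen, 1 was higher and 2 were lower than with vehicle, where 6.71% of all genes were called higher and 5.35% lower. ABCC1, another multidrug resistance exporter, averaged 2765 ± 169 in androgen and 1156 ± 81.3 in vehicle, a log2 difference of 1.26 ± 0.09 (limma adjusted p = 3.57e-05). Androgen plus celastrol was -0.18 ± 0.09 from androgen for ABCC1 and did not pass (adjusted p = 0.294), where the ABCC4 difference of -0.62 passed; the difference between them was not tested. CBR3, a carbonyl reductase, averaged 807 ± 52.8 with androgen plus celastrol and 112 ± 13.3 with androgen, a difference of 2.85 ± 0.11 (adjusted p = 2.33e-06 with limma). It was the 1 gene of this list called for that comparison, where 8.13% of all genes were called higher and 6.6% lower. In vehicle CBR3 averaged 161 ± 6.57, and its fall of 0.53 log2 with androgen was lost without vehicle array 1 (adjusted p = 0.0503). The second lower gene, CYP4F2, lost its call in 15 of 19 alternative settings. SLCO2A1, the importer of prostaglandins, differed by -0.14 ± 0.11 between androgen and vehicle (limma adjusted p = 0.597).

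The cAMP arm below EP2 and EP4 was read from 19 of 21 genes, 4 of them near background. With androgen against vehicle, 1 was higher and 2 were lower, where 6.71% of all genes were called higher and 5.35% lower. With androgen plus celastrol against androgen 1 was higher and 1 lower, where 8.13% of all genes were called higher and 6.6% lower. PRKAR2A, a regulatory subunit of protein kinase A, was 0.70 ± 0.11 higher with androgen (limma adjusted p = 0.00336), while the adenylyl cyclases ADCY1 and ADCY9 differed by -0.84 ± 0.15 and -0.68 ± 0.13. The ADCY1 mean with androgen lies below the background level, so its fall is at least 1.73-fold. PRKAR2B, another regulatory subunit, averaged 230 ± 27.7 with androgen plus celastrol and 564 ± 40.2 with androgen (-1.30 ± 0.13, adjusted p = 0.0003 with limma). CREM, a factor that binds cAMP response elements, averaged 306 ± 27.5 with androgen plus celastrol and 160 ± 12.7 with androgen (0.94 ± 0.11, adjusted p = 0.000934). GNAS, the stimulatory G protein that EP4 uses, differed by -0.07 ± 0.07 between androgen and vehicle (limma adjusted p = 0.676).

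The list for the lipoxygenase arm, which draws on the same arachidonic acid to make leukotrienes, had all 12 genes on the array, 4 of them near background. LTA4H, the leukotriene A4 hydrolase, differed by -0.66 ± 0.10 between androgen and vehicle (limma adjusted p = 0.0024). EPHX2, the soluble epoxide hydrolase, averaged 197 ± 19.2 with androgen plus celastrol and 359 ± 21.9 with androgen (-0.87 ± 0.15, adjusted p = 0.0061 with limma). Each was the 1 called gene of the list in its comparison. Over all genes, 5.35% were called lower with androgen than with vehicle. With androgen plus celastrol against androgen, 6.6% were. EPHX2 was counted in the list although it is no lipoxygenase and makes no leukotrienes.

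Against vehicle, androgen plus celastrol gave 3 higher and 1 lower of 13 synthesis genes, and 3 higher and 0 lower of 10 transport and breakdown genes. It gave 2 higher and 4 lower of 19 cAMP genes, and 0 higher and 2 lower of 12 genes in the lipoxygenase list. Over all genes 12.6% were called higher and 9.3% lower by limma in that comparison. At an unadjusted p under 0.05 with limma, 2 transport and breakdown genes were lower and 0 genes of the lipoxygenase list higher. PLA2G2A stayed low at -1.79 ± 0.14, and CBR3, CBR1 and ABCC1 were higher by 2.32 ± 0.11, 1.24 ± 0.12 and 1.08 ± 0.09. The calls of ADCY9 and PRKACB in this comparison were lost in 12 and 9 of 19 alternative settings and that of ALOX12B in 14 of 18, and ALOX12B lay near background.

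**Figure D4:**
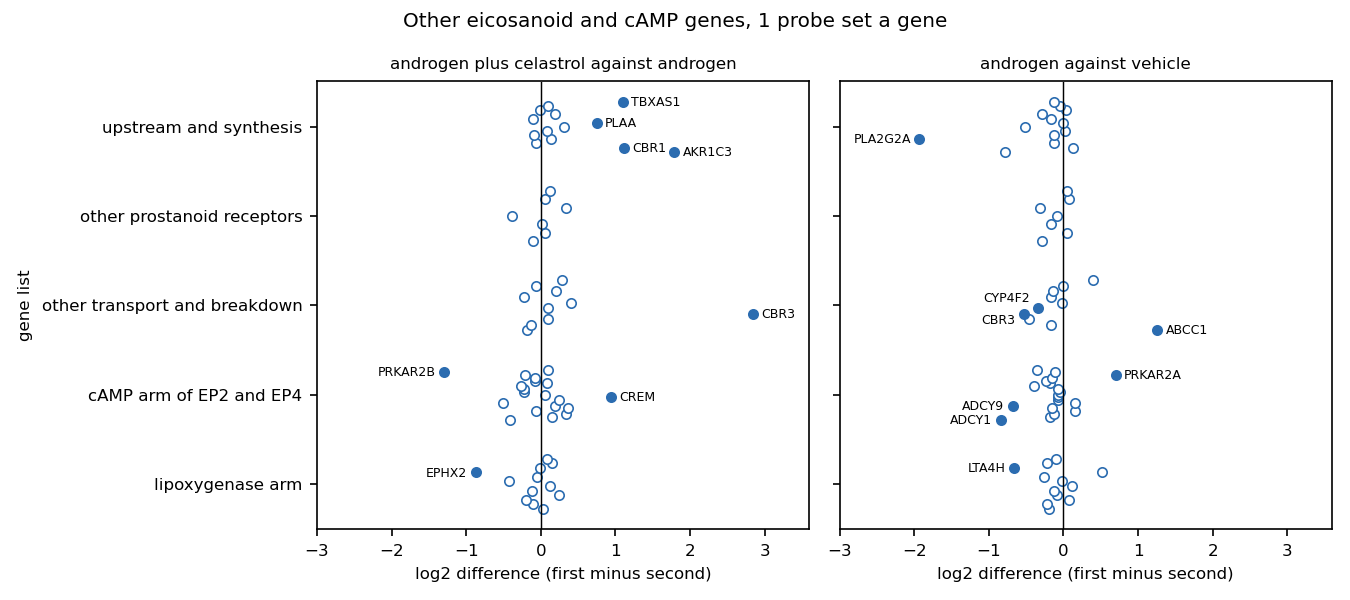
Log2 differences of the other eicosanoid and cAMP genes, 1 point a gene (the probe set with the highest mean), for androgen plus celastrol against androgen (left) and androgen against vehicle (right); filled, named points passed limma's adjusted threshold of 0.05. CBR3, AKR1C3, CBR1 and TBXAS1 lie furthest to the right on the left panel, and PLA2G2A and ABCC1 furthest out on the right panel.

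The genes most like each responding member were taken over 12165 genes by the root mean square difference in log2 between centred profiles over 9 arrays, a description with no test. For HPGD they were MAF at 0.16, GNMT at 0.28, SOCS2 at 0.30, NDRG1 at 0.31 and MICAL1 at 0.31, beside a median of 1.46 over all genes. MAF, a transcription factor, differed by 3.28 ± 0.12 between androgen and vehicle and by -1.57 ± 0.12 between androgen plus celastrol and androgen, close to the HPGD values of 3.49 and -1.66.

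For PTGER4 they were OTULINL at 0.20, TMPRSS2 at 0.21, CADPS2 and NDRG1 at 0.30 and PMEPA1 at 0.34. TMPRSS2, a membrane serine protease and known androgen target, differed by 3.15 ± 0.15 between androgen and vehicle and by -0.16 ± 0.15 between androgen plus celastrol and androgen, beside 3.22 and -0.42 for PTGER4. For ABCC4 they were DNM1L at 0.10, STK39 at 0.11, KRT8 at 0.12, ODC1 at 0.13 and PLPP1 at 0.14, beside a median of 0.72. DNM1L, a mitochondrial fission protein, differed by 1.39 ± 0.08 between androgen and vehicle and by -0.46 ± 0.08 with celastrol against androgen. NDRG1 stands in the lists of both HPGD and PTGER4. All were picked for likeness over these same 9 arrays, so a shared direction follows from the choice. Between androgen plus celastrol and androgen, the genes most like PTGER4 were not uniform. PMEPA1 differed by only -0.07 ± 0.11, which like the TMPRSS2 difference is about its error or less. OTULINL, CADPS2 and NDRG1 differed by -0.67 ± 0.08, -0.72 ± 0.15 and -0.96 ± 0.09, each well past its error.

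**Figure D5:**
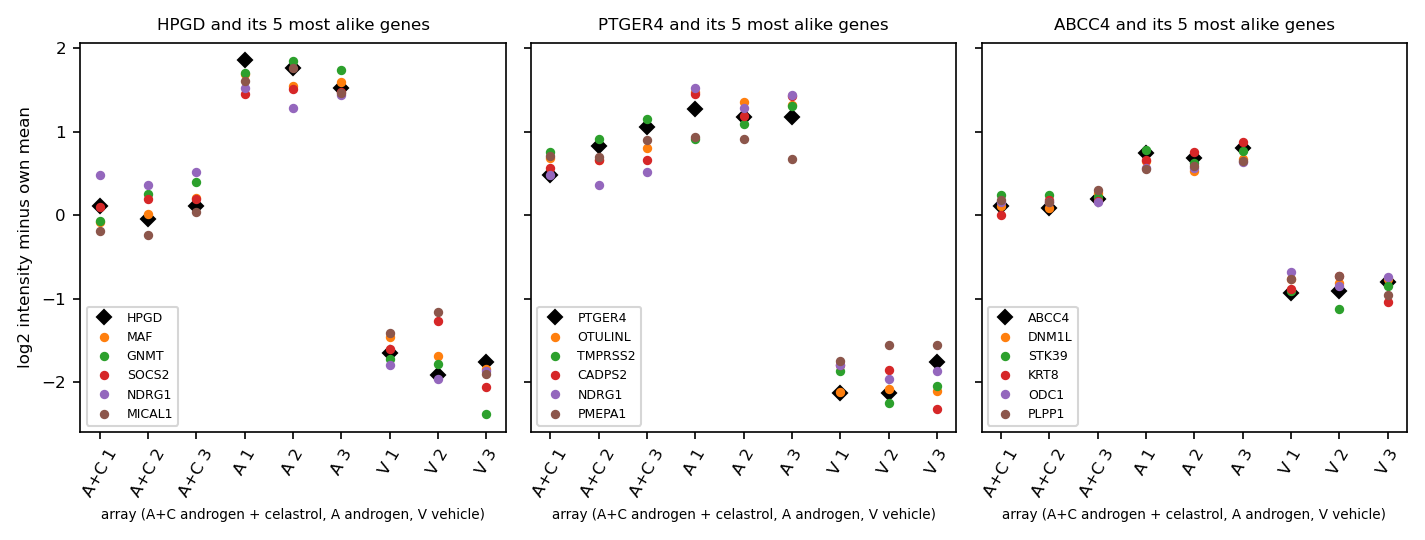
Log2 intensity minus each gene's own mean on every array (A+C androgen plus celastrol, A androgen, V vehicle) for HPGD, PTGER4 and ABCC4 (diamonds) and the 5 genes most like each. HPGD and its genes sit well below their androgen values with celastrol, PTGER4 and its genes sit nearer to them, and ABCC4 and its genes span the smallest range.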

How the data were processed

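RNA of LNCaP cells was hybridised to 9 Affymetrix high-throughput arrays, and the authors made 1 intensity per probe set and array, with RMA per the submitters' processing notes. This method subtracts background, normalizes between arrays and combines a set's probes, so differences in total RNA are removed. The sources used here do not give its version, probe definitions or scan dates. The deposited intensities are linear and were put on the log2 scale with pseudocount 0. The annotation lists 1 gene for 19724 of the 22215 probe sets, several for 568 and none for 1923, and 19707 matched the gene table. Groups came from the labels. One limma 3.58.1 fit in R 4.3.3 held all 9 arrays (lmFit, eBayes, 6 residual and 2.8 prior degrees of freedom), with Benjamini-Hochberg adjustment over all probe sets and a threshold of 0.05. The script was tested on simulated data. The number of arrays limits the precision, and the median standard error was 0.133. Exact permutation tests used scipy 1.17.1. Lists of pathway genes were read by 1 probe set a gene, that with the highest mean, from the same fit.

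Named were all members, up to 4 called genes and 2 others of each list and comparison, and the 5 genes most like HPGD, PTGER4 and ABCC4. Other genes, GCG among them, were picked after their values were seen. The members and lists were chosen with earlier results of these data known. Not analysed here were AKR1B1, PTGFRN, PTGR1, PTGR2, PTGR3, ARRB2 and RAPGEF4. Alternatives were a replicate block, the compared groups only, each array left out, other normalizations, a pseudocount of 16, dim probe sets left out, an intensity trend, 1 probe set a gene and the mean over a gene's probe sets. Each group has replicates numbered 1 to 3. Deviations of same-numbered arrays from their group means correlated at 0.39, 0.37 and 0.63 for androgen and vehicle. Androgen array 1 with vehicle array 2 gave 0.41, and androgen array 2 with vehicle array 1 gave 0.30. Androgen array 3 gave -0.50 and -0.57 with vehicle arrays 1 and 2, and vehicle array 3 gave -0.47 and -0.40 with androgen arrays 1 and 2. The values thus do not show that the numbers pair arrays 1 and 2, while array 3 of androgen and array 3 of vehicle deviated alike. Whether these share a batch or a pairing was not tested, and the main fit held no block. Same-numbered arrays correlated at -0.09, 0.22 and -0.16 for androgen plus celastrol and androgen. For androgen plus celastrol and vehicle they correlated at -0.26, 0.12 and -0.27. Promoter windows are from RefSeq.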

Additional observations from a re-analysis of the deposited data

How the results depend on the processing

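The calls of HPGD at 211548_s_at and 203914_x_at, of PTGER4 at 204897_at against vehicle and of ABCC4 kept direction and side of the threshold in every alternative run for them. With the replicate block over all 9 arrays no member call changed, and 1194 probe sets were called higher and 829 lower with androgen than with vehicle. With the block in the compared groups only, 927 probe sets were called higher and 535 lower for androgen plus celastrol against vehicle, and HPGD at 211549_s_at was lost against androgen (adjusted p = 0.0925 by limma). With 1 probe set a gene, 872 were called higher for androgen against vehicle and 1622 for androgen plus celastrol against vehicle, and members gave 3 higher with androgen and 2 lower with celastrol, since fewer were tested. Leaving out each array in turn gave 580 to 1329 probe sets called lower for androgen against vehicle, and for androgen plus celastrol against androgen 760 to 1709 lower and 923 to 2210 higher; the highest of each came without vehicle array 3. PTGER4 at 204896_s_at lay between -0.06 and 0.31 over all alternatives for androgen against vehicle. The mean over a gene's probe sets gave 1.70 for PTGER4 and 2.75 for HPGD between androgen and vehicle, since dimmer probe sets enter it. The part of the androgen rise kept on the log2 scale was 49.4% for HPGD with a pseudocount of 16 and 57.5% for ABCC4 with quantile normalization, and the cause was not tested. Changes in the 7 near-background probe sets were not detectable at their signal.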

Other observations

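Equal values were common in the deposited table. Of the 22215 probe sets, 9839 (44.3%) had the same value to 3 decimals on at least 2 arrays, and 3875 on at least 3. Among the member probe sets this held for 8 of 14 (57.1%) and for 3 of 14. PTGES at 210367_s_at had 30.5 on all 3 androgen arrays, and PTGS1 at 215813_s_at had 28.9 on 4 arrays. HPGD at 211548_s_at had 161.5 on both array 1 and array 3 of androgen plus celastrol, and at 211549_s_at 44.4 on both array 2 and array 3. The origin of the ties and their effect on the standard deviations were not tested.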
